A study of Homo sapiens with 25 samples.

Results

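The starred arms are the lesser arms of miRNA hairpins, marked by an asterisk in the older miRNA nomenclature that the deposited table uses. They were taken as every human row of the mature miRNA table whose name ends in an asterisk and whose level averaged at least 10 reads per 1000000 miRNA reads (RPM) over all 9 small RNA libraries. This rule selected 121 of 386 human starred rows, in a table of 1033 human rows and 1410 rows in all. The members were thus chosen by their measured mean level, which is a description and no result. An unstarred row of the same name was present for 96 members. The other 25 were rows of single gene copies (such as miR-181a-1*), and each was set against the unstarred row that the copies share. The starred share of a pair is the level of the starred arm as a percentage of both arms together in the same library. Just inside the limit lay miR-101-2* with a mean of 10.1 RPM and miR-196b* with 10.08 RPM. Just outside it lay let-7i* with 9.99 RPM and miR-135a-2* with 9.92 RPM.

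The libraries came from A2780, an ovarian cancer cell line, carrying a lentivirus that overexpresses the primary transcript of miR-450a (3 libraries), one that overexpresses that of miR-450b (3 libraries), or the empty pLVX vector (3 libraries). Total RNA came from biological replicates per the labels, which do not say whether these were separate cultures, or whether a line is a single clone, and p-values here describe only the spread among these libraries, which may be technical. The comparisons ask how each vector changed the miRNAs of these cells. The deposited fractions carry no read totals, so the depth is unknown, and neither counting intervals nor detection limits are stated.

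A miRNA hairpin is cut from its primary transcript by Drosha and trimmed to a short duplex by Dicer. An Argonaute protein usually keeps one strand of the duplex, the guide, and discards the passenger strand, which is then degraded. Which strand is kept depends on the bases at the 5′ ends and on how weakly the end of the duplex is paired, and the strand kept most often can differ between tissues. The seed, bases 2 to 8 of the strand, pairs with target mRNAs, so the strands of a hairpin have different targets.

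Of the members, 97 could be assigned to the 5p or 3p arm by their older names, and 88 of these had both arms in RefSeq (GRCh38.p14). Sequences are given 5′ to 3′ with the seed in capitals. The arms below are shown because the mean starred share of these abundant or well-known hairpins exceeded 50% in at least 1 group. The starred arm stands above its partner in each pair.
miR-675-3p: cUGUAUGCccucaccgcuca
miR-675-5p: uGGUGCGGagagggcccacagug
miR-33b-3p: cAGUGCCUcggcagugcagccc
miR-33b-5p: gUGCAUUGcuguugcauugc
miR-1307-5p: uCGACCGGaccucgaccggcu
miR-1307-3p: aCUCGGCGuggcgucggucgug
miR-30e-3p: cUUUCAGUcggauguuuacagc
miR-30e-5p: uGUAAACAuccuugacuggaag
The next arms belong to the hairpins of the vectors. The starred arms are miR-450a-1-3p, miR-450a-2-3p and miR-450b-3p. Both copies of miR-450a make the same 5p arm.
miR-450a-1-3p: aUUGGGAAcauuuugcauguau
miR-450a-2-3p: aUUGGGGAcauuuugcauucau
miR-450a-5p: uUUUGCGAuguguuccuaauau
miR-450b-3p: uUGGGAUCauuuugcauccaua
miR-450b-5p: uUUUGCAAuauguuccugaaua
The starred arms of the miR-450a copies differ at 3 positions counted from the 5′ end (A7G, G19U and U20C, miR-450a-1-3p given before miR-450a-2-3p), the first of them within the seed. Starred arms also formed families by seed. The seed UUUCAGU was shared by miR-30a* and miR-30e*, AAGCUCG by miR-99a* and miR-99b*, CAAUAUU by miR-195* and miR-16-2*, GUUUUGC by miR-19a* and miR-19b-1*, and UGGGAGA by miR-30c-1* and miR-30c-2*.

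Unstarred miR-450a stood at 8967, 10075 and 20745 RPM in miR-450a vector libraries, 270.2, 504 and 445 RPM in miR-450b vector libraries and 317, 405 and 446 RPM in empty vector libraries. Unstarred miR-450b stood at 207, 223 and 293 RPM in miR-450a vector libraries, 547, 850.3 and 1544 RPM in miR-450b vector libraries and 71.6, 72.4 and 131 RPM in empty vector libraries. Each miRNA was thus highest in all 3 libraries labelled with its vector. The libraries labelled miR-450a vector nevertheless stood apart from the other 6 in miRNAs that the vector does not carry. They held 47.8 to 73.4 RPM of the SV40 miRNA miR-S1-3p, against at most 0.501 RPM in any other library. The mesenchymal marker rows (10 rows of miR-199a, miR-199b, miR-214, miR-143 and miR-145, none at 0 throughout a group) summed to 418 to 573 RPM there, 205698 to 251407 RPM in miR-450b vector libraries and 179692 to 258394 RPM in empty vector libraries. The 10 epithelial rows (the miR-200 family) summed to 279.8 to 370 RPM in miR-450a vector libraries, 88.7 to 153 RPM in miR-450b vector libraries and 68.0 to 90.3 RPM in empty vector libraries, with 1, 2 and 1 of the rows at 0 throughout the group. The 6 muscle rows covered miR-133a, miR-133b and miR-206, and left out miR-1. They summed to 6.57 to 19.0 RPM in miR-450a vector libraries, 30.2 to 52.7 RPM in miR-450b vector libraries and 206 to 454 RPM in empty vector libraries. In these groups 3, 2 and 1 rows stood at 0 throughout. The 7 neural rows left out miR-9. They summed to 6422 to 7753 RPM in miR-450a vector libraries and 8056 to 10735 RPM in miR-450b vector libraries. The sum was 10286 to 11399 RPM in empty vector libraries, and 1, 0 and 0 rows stood at 0 throughout, in this order. Unstarred miR-9 went the other way, at 2910, 2923 and 4112 RPM with the miR-450a vector. Its level was 115, 110 and 182 RPM with the miR-450b vector and 234, 265 and 422 RPM with the empty vector. A neural sum that includes miR-9 was not formed, so these rows do not show how neural miRNAs differ as a whole. The sums of the endothelial and blood rows overlapped between all groups, and those of the liver rows overlapped with the empty vector. The part of these differences in the results was not tested. Every contrast with the libraries labelled miR-450a vector is therefore given as a contrast between sets of libraries, in which the vector and whatever else sets them apart cannot be told apart. Both arms of a hairpin are cut from the same transcript and measured in the same library, so a starred share does not depend on the scaling of the library, while a level does. In bulk RNA, fewer cells of a type and less RNA per cell cannot be told apart.

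Starred rows together held 3.03, 3.10 and 2.84% of miRNA reads in miR-450a vector libraries, 2.44, 2.54 and 2.39% in miR-450b vector libraries, and 2.58, 2.64 and 2.25% in empty vector libraries. The 121 members made up 98.3 to 99.2% of these starred reads. For 93 of 94 members with a precursor row of their own, the deposited precursor level equalled the sum of both arms within 1 RPM. Copies of a hairpin were summed before a share was formed, which left 115 pairs of arms. The mean starred share over the 9 libraries had a median of 4.10% over these pairs. It was under 1% in 20 pairs, from 1 to 10% in 61, above 10 and up to 50% in 27, and above 50% in 7.

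The starred arm of 3 pairs outnumbered its partner in all 9 libraries. One was miR-675, which is made from the non-coding RNA H19 (chr11:1996759-1996831, minus strand, GRCh38.p14). Its starred share was 55.9, 63.4 and 70.8% in miR-450a vector libraries, 66.6, 73.0 and 74.9% in miR-450b vector libraries and 59.0, 76.1 and 72.0% in empty vector libraries. The groups overlapped, although the level of miR-675* itself ranged from 6.68 RPM in a miR-450a vector library to 944 RPM in a miR-450b vector library. The share of miR-324 was 76.3, 68.7 and 62.6% in miR-450a vector libraries, 84.2, 84.7 and 77.3% in miR-450b vector libraries and 73.5, 78.3 and 73.6% in empty vector libraries. The share of miR-641 was 76.1, 70.2 and 74.2% in miR-450a vector libraries, 65.8, 82.8 and 76.1% in miR-450b vector libraries and 71.2, 73.4 and 76.2% in empty vector libraries, at mean pair levels under 100 RPM in the miR-450b and empty vector groups. For miR-628 the starred arm was the greater one in 8 libraries, with 58.4, 67.4 and 89.8% in miR-450a vector libraries, 49.9, 60.5 and 59.6% in miR-450b vector libraries and 66.0, 59.6 and 59.0% in empty vector libraries.

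Both miR-33 hairpins, which lie in introns of the genes for the sterol regulators SREBF1 (miR-33b) and SREBF2 (miR-33a), also had a high starred share. That of miR-33b was 90.0, 82.1 and 96.4% in miR-450a vector libraries, 97.3, 95.4 and 94.7% in miR-450b vector libraries and 39.4, 97.0 and 95.4% in empty vector libraries. A single library, empty vector 1, lay below the other 8. In it miR-33b* stood at 306 RPM, near the 244 and 248 RPM of the other empty vector libraries, whereas unstarred miR-33b stood at 471 RPM, against 7.66 and 11.9 RPM. The share of miR-33a was 65.6, 37.2 and 57.8% in miR-450a vector libraries, 77.6, 65.8 and 48.3% in miR-450b vector libraries and 10.6, 36.6 and 55.9% in empty vector libraries, lowest in the same library. The share of miR-1307 was 65.2, 53.1 and 67.7% in miR-450a vector libraries, 76.5, 69.1 and 53.1% in miR-450b vector libraries and 36.8, 67.0 and 43.9% in empty vector libraries, at or above 53.1% in all 6 libraries of the overexpression vectors and in 1 of 3 empty vector libraries. The share of miR-30e was 49.7, 43.3 and 50.1% in miR-450a vector libraries, 59.3, 58.4 and 32.9% in miR-450b vector libraries and 35.2, 43.2 and 36.6% in empty vector libraries, and that of miR-32 was 34.1, 23.7 and 40.8% in miR-450a vector libraries, 52.2, 50.7 and 54.6% in miR-450b vector libraries and 21.7, 69.6 and 65.3% in empty vector libraries. The share of miR-671 was 62.5, 30.1 and 52.4% in miR-450a vector libraries, 68.5, 50.1 and 41.0% in miR-450b vector libraries and 19.3, 28.7 and 42.0% in empty vector libraries. For miR-1307, miR-32 and miR-671 both overexpression groups overlapped the empty vector group. For miR-30e the lowest miR-450a vector library (43.3%) lay just above the highest empty vector library (43.2%).

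**Figure D1:**
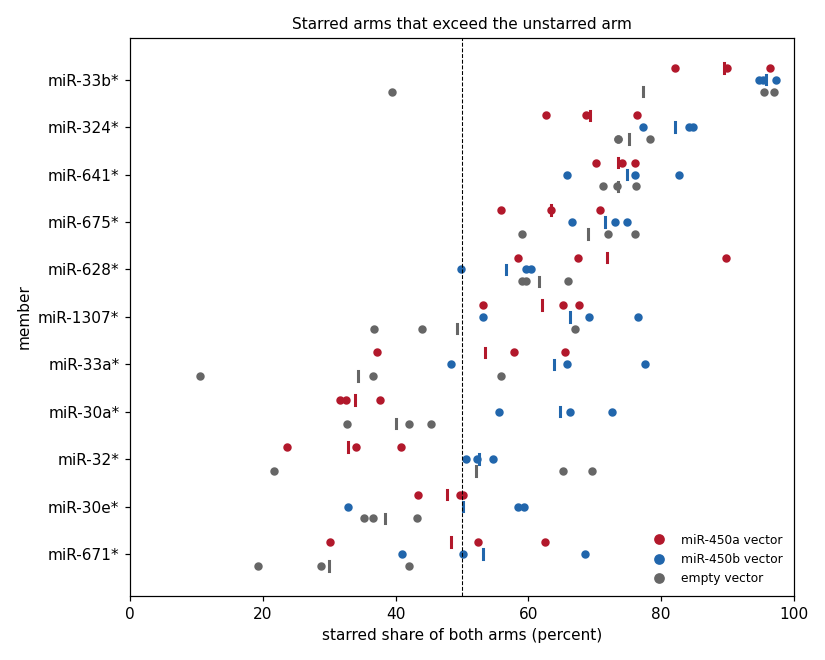
Starred share of both arms (percent, horizontal axis) of the 11 members whose group mean exceeded 50% in at least 1 group. Each point is a library, vertical ticks are group means (n = 3), and the dashed line marks 50%; miR-33b* lies at 82.1% or above in 8 libraries and at 39.4% in empty vector 1.

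The share of miR-30a was 37.7, 32.6 and 31.6% in miR-450a vector libraries, 72.6, 66.3 and 55.6% in miR-450b vector libraries and 42.1, 45.3 and 32.7% in empty vector libraries. All 3 miR-450b vector libraries lay above the other 6. With the miR-450b vector both arms were scarce, at 26.6, 21.9 and 17.3 RPM for miR-30a* and 10.0, 11.1 and 13.8 RPM for miR-30a, and the pair was under 100 RPM there and not tested. The 3p arms of miR-30e and miR-30a differ at a single base (A18G, miR-30e given first), as do their 5p arms (U13C).
miR-30a-3p: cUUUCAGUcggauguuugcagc
miR-30a-5p: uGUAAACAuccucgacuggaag
As a percentage of the level of miR-30e*, that of miR-30a* was 48.6, 41.5 and 42.5 in miR-450a vector libraries, 1.45, 1.19 and 1.25 in miR-450b vector libraries and 2.15, 2.28 and 2.48 in empty vector libraries. At the low percentages in the miR-450b and empty vector libraries the level of miR-30a* is uncertain, since nothing used here states how reads were divided between such near-identical arms.

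The most abundant member was miR-17*, the lesser arm of a member of the growth-promoting miR-17~92 cluster, with 3688, 5829 and 3562 RPM in miR-450a vector libraries, 1554, 1779 and 2084 RPM in miR-450b vector libraries and 2450.1, 2895 and 1739 RPM in empty vector libraries. The starred arm made up 7.81, 6.25 and 6.10% in miR-450a vector libraries, 5.80, 4.56 and 7.14% in miR-450b vector libraries and 4.44, 7.41 and 5.33% in empty vector libraries, a range of a few points in every group. The next was miR-106b*, from a hairpin in an intron of the replication gene MCM7, with 4025, 2042 and 3925 RPM in miR-450a vector libraries, 2931, 2436 and 2289 RPM in miR-450b vector libraries and 872, 1632 and 1473 RPM in empty vector libraries. Its share varied more, at 18.9, 7.10 and 28.1% in miR-450a vector libraries, 25.7, 16.6 and 11.0% in miR-450b vector libraries and 4.35, 8.49 and 7.75% in empty vector libraries. The members miR-1307*, miR-30e*, miR-324* and miR-10a* followed, with means of 2391, 1716, 1356 and 1354 RPM over the 9 libraries. The level of miR-10a*, whose hairpin lies in the HOXB cluster, was 1147, 1271 and 1033 RPM in miR-450a vector libraries, 1211, 1467 and 1249 RPM in miR-450b vector libraries and 1589, 1863 and 1358 RPM in empty vector libraries. The last of the 10 most abundant were miR-425*, miR-378*, miR-99b* and miR-15b*, at means of 552 to 659 RPM.

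The first bases of the arms are described for the 88 members with both sequences, each paired with its unstarred arm. Copies were not summed here, so an unstarred arm shared by copies counts once per copy. The shares are those of the single starred rows. The unstarred arm began with U in 62 of 88 pairs (70.5%), and the starred arm in 10 (11.4%). The starred arm began with C in 41 pairs (46.6%), against 8 unstarred arms (9.09%). The first 4 bases held 1.83 A or U on average in starred arms, against 2.49 in unstarred arms, and the mean GC content was 49.5% in starred arms, against 44.6% in unstarred arms. The median length was 22 bases for both. In the 53 pairs where only the unstarred arm began with U, the median starred share was 2.22%. It was 2.23% in the 9 pairs where both arms began with U and 4.32% in the 25 pairs where neither did. In the only pair where just the starred arm began with U, miR-1307, the mean share was 59.1%. Families share sequence, so these pairs are not independent.

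With the miR-450b vector, 17 of 121 starred arms changed in level against the empty vector (limma on log2(RPM + 10), Benjamini-Hochberg adjusted p under 0.05 over 406 rows). The 5 that rose were miR-450b*, let-7a*, let-7c*, miR-675* and let-7f-2*, and 12 fell, with miR-34a*, miR-222*, miR-145* and miR-106a* lowest. Of all 406 rows tested, 4.43% rose and 10.1% fell, so the members' 4.13% and 9.92% were close to the background. The median change was -0.09 over the members and -0.16 over all rows. With median-of-ratios scaling, which moved the median of all rows by 0.10, 9 rose and 11 fell. All 17 had groups that did not overlap. So did 65 of 67 calls between the miR-450a and empty vectors and 70 of 72 between the miR-450a and miR-450b vectors. Calls in groups of 3 mostly separate, so this adds no support, and the share over all 406 rows was not counted. Of the 84 members that averaged at least 10 RPM in all 3 groups, only let-7a* rose and only miR-22* fell. The other 15 calls came from members under this mean in at least 1 group, 3 up and 9 down of 22 that reached it in 2 groups, and 1 up and 2 down of 15 that reached it in a single group. Those 3 were miR-450b*, which entered through the miR-450b vector libraries, and miR-143* and miR-145*, which entered through the empty vector libraries, so each had to differ between groups. A fold change on this scale understates the change of a low row.

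The starred arm of the overexpressed hairpin, miR-450b*, had 25.0, 44.9 and 59.6 RPM with the miR-450b vector, against 0.961, 0.0822 and 0.889 RPM with the empty vector. The change was 2.27 ± 0.22 (SE), adjusted p = 4.29e-05. The unstarred arm had 547, 850.3 and 1544 RPM with the miR-450b vector, against 71.6, 72.4 and 131 RPM with the empty vector. Since miR-450b* was at or under 2.37 RPM in the other 6 libraries and met the 10 RPM mean only through the group where it is high, its test adds nothing to these values. The starred arms of the neighbouring miR-450a copies did not pass the test in this comparison, with changes of 0.08 ± 0.24 (SE) for miR-450a-1* and 0.46 ± 0.20 (SE) for miR-450a-2*.

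Of the 6 starred members of the let-7 family, a family that restrains growth and marks differentiated cells, 3 rose with the miR-450b vector and 3 did not pass the test. The level of let-7a* was 243, 360.3 and 386 RPM with the miR-450b vector, against 80.5, 61.7 and 68.9 RPM with the empty vector (2.06 ± 0.26 (SE), adjusted p = 1.67e-04). That of let-7c* was 115, 94.9 and 105 RPM with the miR-450b vector, against 25.1, 34.9 and 23.1 RPM with the empty vector (1.62 ± 0.20 (SE), adjusted p = 1.56e-04). That of let-7f-2* was 23.3, 42.4 and 38.7 RPM with the miR-450b vector, against 6.21, 8.03 and 10.4 RPM with the empty vector (1.28 ± 0.27 (SE), adjusted p = 0.00717). In each of the 3 the lowest miR-450b vector library lay above the highest empty vector library. The call for let-7f-2* was lost with a pseudocount of 100 RPM and with no filter. The level of miR-675* was 816, 944 and 924 RPM with the miR-450b vector, against 285, 432 and 353 RPM with the empty vector (1.32 ± 0.26 (SE), adjusted p = 0.00372).

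The deepest fall was that of miR-34a*, the lesser arm of a miRNA induced by p53. It stood at 0.944, 0.325 and 1.50 RPM with the miR-450b vector, against 128, 34.9 and 54.5 RPM with the empty vector (-2.75 ± 0.41 (SE), adjusted p = 5.33e-04). Both starred arms of the X-linked miR-221 and miR-222 pair, whose main arms act on the cell cycle inhibitor CDKN1B, also fell. The level of miR-221* was 10.9, 8.66 and 6.36 RPM with the miR-450b vector, against 36.2, 59.1 and 56.5 RPM with the empty vector (-1.69 ± 0.25 (SE), adjusted p = 5.33e-04). That of miR-222* was 1.42, 3.03 and 3.22 RPM with the miR-450b vector, against 171, 17.2 and 34.1 RPM with the empty vector (-2.26 ± 0.56 (SE), adjusted p = 0.0182). Of the empty vector libraries, empty vector 1 was by far the highest in miR-222*, and the call was lost without miR-450b vector 1 (change of -2.19, adjusted p = 0.0588), with a pseudocount of 100 RPM and with no filter. Without empty vector 1 the change was -1.47 (adjusted p = 0.0109). Both members of the mesenchymal list, from the miR-143 and miR-145 hairpins, fell. The level of miR-145* fell to 3.19, 3.68 and 5.08 RPM with the miR-450b vector, against 67.2, 48.7 and 37.0 RPM with the empty vector (-2.10 ± 0.19 (SE), adjusted p = 1.96e-05). That of miR-143* fell to 7.44, 7.36 and 7.44 RPM with the miR-450b vector, against 53.7, 28.0 and 19.8 RPM with the empty vector (-1.26 ± 0.24 (SE), adjusted p = 0.00338). Since miR-143* and miR-145* reached a mean of 10 RPM in empty vector libraries only, their tests add nothing to these values. The summed mesenchymal rows, given above, overlapped between these groups. The 6 muscle rows (of miR-133a, miR-133b and miR-206, without miR-1) did not. They summed to 30.2 to 52.7 RPM in miR-450b vector libraries and 206 to 454 RPM in empty vector libraries (2 and 1 rows at 0 throughout). Their part in the result was not tested. The level of miR-582* was 1.30, 0.758 and 1.72 RPM with the miR-450b vector, against 27.5, 21.0 and 31.6 RPM with the empty vector (-1.69 ± 0.18 (SE), adjusted p = 5.77e-05).

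Among the 13 starred members of the miR-17~92 cluster and its paralogs, 3 fell with the miR-450b vector and 10 did not pass the test. The 3 were miR-106a*, miR-20b* and miR-363*, all from the paralogous cluster on the X chromosome. The level of miR-106a* was 6.26, 14.7 and 23.0 RPM with the miR-450b vector, against 93.7, 42.5 and 104 RPM with the empty vector (-1.85 ± 0.33 (SE), adjusted p = 0.00221). That of miR-20b* was 21.3, 21.0 and 27.5 RPM with the miR-450b vector, against 44.4, 65.4 and 60.0 RPM with the empty vector (-0.99 ± 0.19 (SE), adjusted p = 0.00372), and that of miR-363* was 11.1, 11.9 and 14.0 RPM with the miR-450b vector, against 16.7, 33.6 and 34.8 RPM with the empty vector (-0.75 ± 0.21 (SE), adjusted p = 0.0314). For miR-17* of the cluster on chromosome 13 the change was -0.36 ± 0.30 (SE), for miR-20a* -1.32 ± 0.48 (SE) and for miR-19a* -1.47 ± 0.71 (SE). The call for miR-363* was lost in 10 of 14 alternatives, among them without any single miR-450b vector library and without empty vector 2 or 3 (changes of -0.80 to -0.61). The remaining falls were miR-130a* (-1.53), miR-22* (-1.22) and miR-9* (-1.04). The call for miR-22* was lost in 5 of 14 alternatives, among them without any single miR-450b vector library and without empty vector 1 (-1.32 to -0.99). That for miR-9* was lost in 6 of 14, among them without miR-450b vector 1 or 2 and without empty vector 1 (-1.04 to -0.77).

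**Figure D2:**
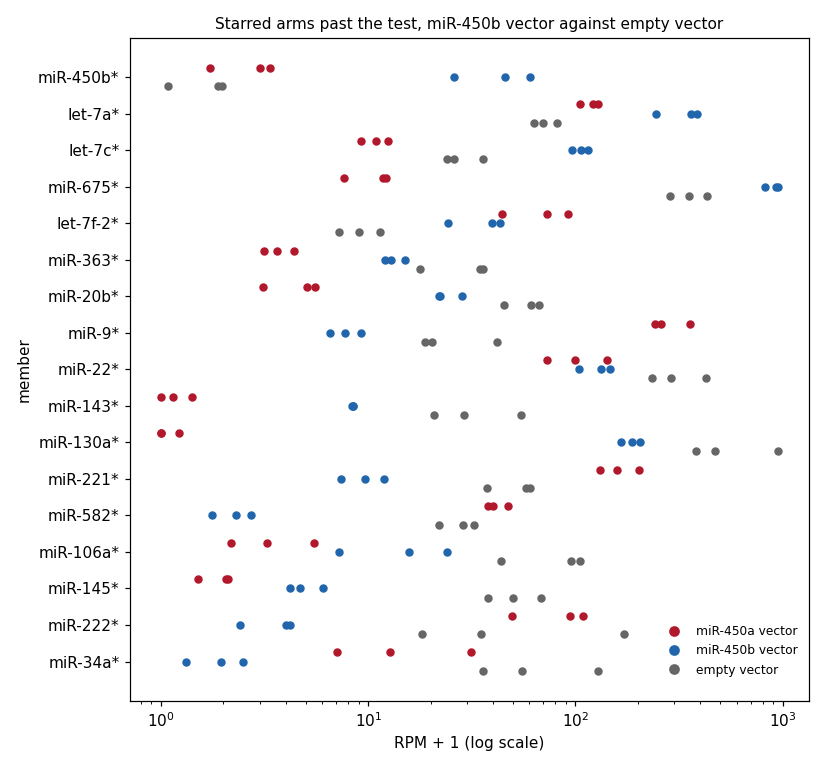
Levels (RPM + 1, log scale, horizontal axis) of the 17 starred arms that passed the test in miR-450b relative to empty vector libraries, ordered by log2 change. Each point is a library; for miR-34a* all miR-450b vector libraries lie at or below 1.50 RPM and all empty vector libraries at or above 34.9 RPM.

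In the libraries labelled miR-450a vector, which differ from the others in the marker sums given above, 67 of 121 starred arms differed from the empty vector, 39 higher and 28 lower (limma, as above). Of all 406 rows, 36.9% were higher and 18.5% lower, against 32.2% and 23.1% of the members. The median change was 0.13 over the members and 0.44 over all rows. With median-of-ratios scaling, which moved the median of all rows by -0.39, 27 were higher and 37 lower. Of the 84 members that averaged at least 10 RPM in all 3 groups, 22 were higher and 14 lower. The 15 members that reached this mean in a single group had to differ between groups, and 11 of them were higher and 2 lower here.

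The largest difference upward was that of miR-450a-1*, the starred arm of the overexpressed miRNA, with 881, 1179.5 and 746 RPM with the miR-450a vector, against 12.7, 9.45 and 14.7 RPM with the empty vector (5.39 ± 0.24 (SE), adjusted p = 8.15e-09). In the list of the X-linked cluster that runs from miR-424 to miR-450, 5 of 6 starred members were higher and miR-450b* did not pass the test. Of all 406 rows, 36.9% were higher. The 5 include the starred arms of both copies of miR-450a, and the call for miR-542* was lost in 1 of 14 alternatives. The starred arm of miR-424 was 354, 302 and 416 RPM with the miR-450a vector, against 77.6, 145 and 80.7 RPM with the empty vector (1.77 ± 0.31 (SE), adjusted p = 5.37e-04). Next in size came miR-181a-1*, with 434, 341 and 582 RPM with the miR-450a vector, against 2.19, 5.59 and 5.07 RPM with the empty vector (4.99 ± 0.23 (SE), adjusted p = 1.09e-08). The level of miR-30a* was 1045, 699.5 and 948 RPM with the miR-450a vector, against 25.3, 35.1 and 39.8 RPM with the empty vector (4.38 ± 0.26 (SE), adjusted p = 8.27e-08). In these starred arms every library labelled miR-450a vector lay above every empty vector library. The level of miR-10b*, from the HOXD cluster, was 203, 279 and 194 RPM with the miR-450a vector, against 1.03, 2.01 and 1.60 RPM with the empty vector (4.33 ± 0.20 (SE), adjusted p = 9.64e-09), and that of miR-148a* was 289, 204 and 314 RPM with the miR-450a vector, against 4.54, 5.75 and 7.29 RPM with the empty vector (4.12 ± 0.20 (SE), adjusted p = 1.57e-08). Of these, miR-181a-1*, miR-10b* and miR-148a* are among the 15 that reached 10 RPM in a single group, so their tests add nothing to the values. For all 5 the unstarred arm was also higher, by 3.35 to 6.90 on the log2 scale.

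The deepest difference downward was that of miR-130a*, at 0, 0.223 and 0 RPM with the miR-450a vector, against 943, 470.4 and 378 RPM with the empty vector (-5.80 ± 0.32 (SE), adjusted p = 4.23e-08). Since it was listed at 0 in 2 of the libraries, the size depends on the pseudocount. The level of miR-675* was 10.8, 6.68 and 11.2 RPM with the miR-450a vector, against 285, 432 and 353 RPM with the empty vector (-4.22 ± 0.26 (SE), adjusted p = 9.00e-08). That of miR-99a* was 32.9, 51.6 and 24.3 RPM with the miR-450a vector, against 658, 574 and 457 RPM with the empty vector (-3.66 ± 0.29 (SE), adjusted p = 7.23e-07). The starred arms of the neighbouring miR-29a and miR-29b-1 hairpins were both lower. That of miR-29a was 24.7, 50.4 and 10.6 RPM with the miR-450a vector, against 505, 215 and 254 RPM with the empty vector (-3.15 ± 0.48 (SE), adjusted p = 1.69e-04), and that of miR-29b-1 was 8.62, 13.5 and 2.56 RPM with the miR-450a vector, against 156, 169 and 123 RPM with the empty vector (-3.16 ± 0.33 (SE), adjusted p = 9.29e-06).

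By family, both sets of counts use the same 3 empty vector libraries. Of all 406 rows, 36.9% were higher and 18.5% lower in miR-450a vector libraries. In miR-450b vector libraries 4.43% rose and 10.1% fell. The miR-17~92 cluster and its paralogs (13 members) held 4 starred arms that were higher and 3 that were lower in miR-450a vector libraries, and 3 that fell in miR-450b vector libraries. The higher ones were miR-17*, miR-106b*, miR-93* (0.71) and miR-92a-1* (1.08). The call for miR-93* was lost in 6 of 14 alternatives. Among them were median-of-ratios scaling and leaving out miR-450a vector 1 or 3 or empty vector 1 or 2 (0.55 to 0.78). That for miR-92a-1* was also lost in 6 of 14. Among these were the same scaling and leaving out miR-450a vector 1 or 3 or empty vector 1 or 3 (0.82 to 1.06). The difference of miR-17* was 0.87 ± 0.30 (SE), and its call was lost in 6 of 14 alternatives. Among them were leaving out miR-450a vector 2 (0.65) or empty vector 3 (0.67) and median-of-ratios scaling. The difference of miR-106b* was 1.31 ± 0.35 (SE), which no longer passed under median-of-ratios scaling. The 3 lower ones were again the X-linked miR-106a* (-2.76), miR-20b* (-2.29) and miR-363* (-1.56). In let-7 (6 members) let-7f-2* (2.07), let-7d* (1.46) and let-7g* (1.26) were higher and let-7c* (-0.91) was lower in miR-450a vector libraries, and let-7a* and let-7e* did not pass.

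In the miR-30 family (6 members) miR-30a* and miR-30c-2* were higher in miR-450a vector libraries. In the miR-181 family (3 members) miR-181a-1* and miR-181c* (1.28) were. Of the miR-10 and miR-196 hairpins in the HOX clusters (5 members), miR-10b* and miR-196b* (1.99) were higher. In the miR-29 family (4 members) miR-29b-2* and miR-29c* were higher, and miR-29a* and miR-29b-1* lower. Of these higher members, miR-30c-2*, miR-181a-1*, miR-10b*, miR-196b* and miR-29b-2* reached a mean of 10 RPM in a single group. They had to differ between groups, so their tests add nothing to their levels. The clusters of miR-23, miR-27 and miR-24 (4 members) held 3 lower starred arms, miR-27a* (-2.20), miR-23a* (-1.75) and miR-24-2* (-1.40). The family of miR-99, miR-100 and miR-125 (4 members) also held 3, miR-99a*, miR-125b-2* (-2.33) and miR-125a* (-1.01). The call for miR-125a* was lost in 7 of 14 alternatives, among them without miR-450a vector 2 or 3 and without empty vector 1 or 3 (-1.02 to -0.67). In the cluster of miR-183, miR-96 and miR-182 (3 members), which is known from sensory organs, miR-183* (-1.71) and miR-96* (-1.28) were lower, and miR-182* (-0.54) did not pass. Both members of the miR-26 family were lower, miR-26a-2* (-1.18) and miR-26b* (-1.13). None of the starred arms of these 8 families passed in miR-450b vector libraries.

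Among the miR-15 and miR-16 relatives (5 members) miR-195* was higher (0.74) and miR-15b* lower (-0.78) in miR-450a vector libraries, and none passed in miR-450b vector libraries. The difference of miR-16-2* in miR-450a vector libraries was -0.85 ± 0.36 (SE) and did not pass. The call for miR-15b* was lost in 6 of 14 alternatives, among them without miR-450a vector 1 or 3 and without empty vector 2 or 3 (-0.76 to -0.66). That for miR-195* was lost under median-of-ratios scaling. In the group of miR-148, miR-152, miR-130 and miR-301 (5 members) miR-148a* was higher and miR-130a* lower in miR-450a vector libraries, and miR-130a* fell in miR-450b vector libraries, while miR-301a* passed in neither comparison. The starred arm miR-221* was higher in miR-450a vector libraries (1.51 ± 0.25 (SE), adjusted p = 3.16e-04) and lower in miR-450b vector libraries, as given above. For miR-222* the difference in miR-450a vector libraries was 0.57 ± 0.56 (SE), which did not pass, and 1.37 without empty vector 1, which did (adjusted p = 0.00496). The starred arms miR-143* (-2.03), miR-145* (-2.45) and miR-34a* (-1.61) were lower in miR-450a vector libraries too. Since miR-143* and miR-145* reached a mean of 10 RPM in empty vector libraries only, their tests add nothing to their levels. The 3 members of the cluster in the CLCN5 gene, miR-188*, miR-502* and miR-660*, passed in neither comparison, and the miR-200 family had no member.

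Between the 2 vectors, 45 of 121 starred arms were higher and 27 lower in the libraries labelled miR-450a vector than with the miR-450b vector (37.2% and 22.3%), against 41.9% and 18.5% of all 406 rows. With median-of-ratios scaling, which moved the median of all rows by -0.49, 21 were higher and 41 lower. The largest differences were those of miR-450a-1* (5.31), miR-181a-1* (4.86) and miR-30a* (4.82) upward and miR-675* (-5.54), miR-130a* (-4.27) and miR-99a* (-3.24) downward. The starred arm of miR-450b stood at 0.718, 2.01 and 2.37 RPM with the miR-450a vector and 25.0, 44.9 and 59.6 RPM with the miR-450b vector (-2.13 ± 0.22 (SE), adjusted p = 9.39e-06). Since miR-450b* and miR-181a-1* met the 10 RPM mean only through the group where they are high, their tests add nothing to these values.

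For most starred arms that passed the test in level, the unstarred partner passed in the same direction. Of the 17 starred arms that changed in miR-450b vector libraries relative to empty vector libraries, 15 had an unstarred arm that passed the same test in the same direction, 2 had one that did not pass (miR-130a and miR-22), and none had one that passed in the opposite direction. Of the 67 that differed between miR-450a and empty vector libraries, 47 had an unstarred arm that passed in the same direction. For 19 it did not pass, and for 1, miR-29b-2*, it passed in the opposite direction. This call of unstarred miR-29b was lost with no filter, without empty vector 1 (-1.56) and without miR-450a vector 1 (-2.29) or 3 (-2.20). Of the 72 that differed between the vectors, 57 had a partner in the same direction, 15 one that did not pass, and none an opposite one. The unstarred arm alone passed for 7 members in miR-450b and 18 in miR-450a vector libraries, each relative to the empty vector. It did so for 14 members between the vectors. These counts include members that reached 10 RPM in a single group and had to differ. The shares of all rows that passed are given above. Across the 121 members the changes of both arms had a Pearson correlation of 0.75 in miR-450b and 0.84 in miR-450a vector libraries, each relative to the empty vector. The points share libraries and clusters, so this is a description. The changes of the arms lay within 1 of each other on the log2 scale for 97 members in miR-450b vector libraries and for 85 in miR-450a vector libraries.

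**Figure D3:**
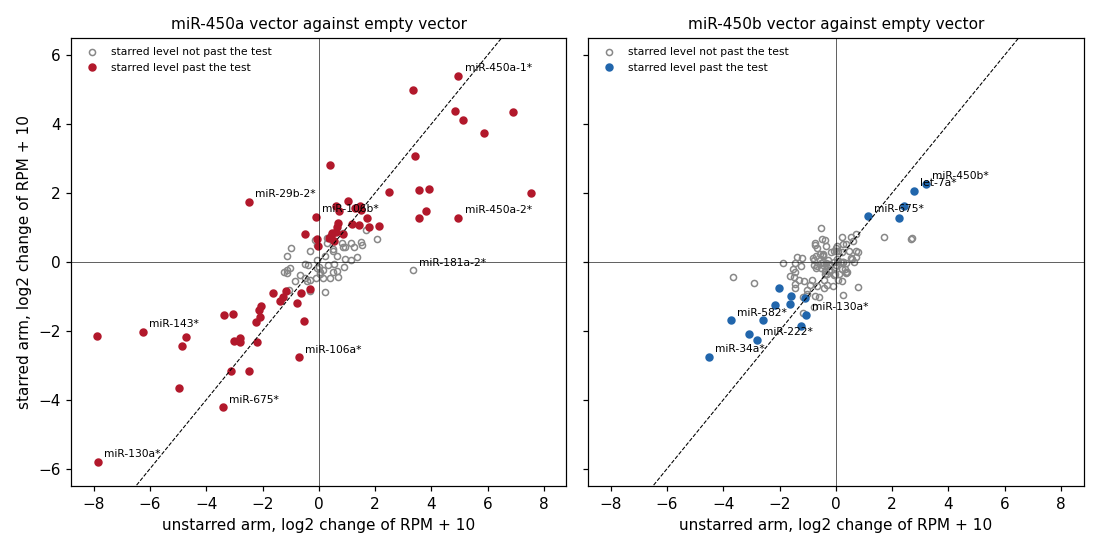
Log2 change of the starred arm (vertical axis) against that of the unstarred arm (horizontal axis) for the 121 members, with the miR-450a vector (left) and the miR-450b vector (right) relative to the empty vector. Filled points passed the test in the starred level, the dashed line marks equal change, and most filled points lie in the lower left or upper right; miR-29b-2* lies in the upper left.

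The balance of the arms was tested directly as the change of the log2 odds of the starred over the unstarred arm (limma, offset of 0.5 percentage points, 6 libraries), for every pair of arms averaging at least 100 RPM in both groups. Against the empty vector, 0 of 99 member pairs passed with the miR-450b vector, and 0% of all 147 pairs, which include those named 5p and 3p (unadjusted p under 0.05 in 8 member pairs and 10 of all pairs). With the miR-450a vector 2 of 101 member pairs passed, both lower, against 2% of all 150 pairs (unadjusted p under 0.05 in 5 member pairs). Between the vectors 2 of 97 member pairs passed, both lower with the miR-450a vector, against 1.39% of all 144 pairs (unadjusted p under 0.05 in 9 member pairs). The median change of the log2 odds over member pairs was 0.06 in miR-450b and -0.02 in miR-450a vector libraries relative to the empty vector, and -0.02 and -0.04 over all pairs. The intervals of single pairs were wide. The 95% interval had a median half-width of 0.94 for the miR-450b vector and 0.98 for the miR-450a vector, and it lay within 1 of 0 in 28 of 99 and 20 of 101 member pairs. For the other 71 and 81 pairs a doubling or halving of the odds was not excluded, so the test does not show that arm balance was the same.

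The pair with the lowest p with the miR-450b vector was miR-99a, whose hairpin lies with those of let-7c and miR-125b-2 on chromosome 21. Its starred share was 6.60, 5.79 and 6.84% in miR-450b vector libraries, against 2.41, 2.29 and 4.29% with the empty vector (1.08 ± 0.26 (SE), adjusted p = 0.591), so it did not pass the test. The starred arm stood at 385, 446 and 419 RPM with the miR-450b vector, against 658, 574 and 457 RPM with the empty vector. The unstarred arm stood at 5442, 7259 and 5697 RPM with the miR-450b vector, against 26650.0, 24521 and 10186 RPM with the empty vector, so the unstarred arm differed more. The share of miR-106b was 25.7, 16.6 and 11.0% with the miR-450b vector, against 4.35, 8.49 and 7.75% with the empty vector (1.46 ± 0.42 (SE), adjusted p = 0.591). In both pairs the groups did not overlap, as in 13 of all 99 member pairs tested. This adds no support, and pairs without overlap were not counted over all 147 pairs tested.

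The pairs that passed were miR-130a, miR-106a and miR-450b. The share of miR-130a* was 0, 0.109 and 0% in miR-450a vector libraries, 2.09, 1.22 and 1.21% in miR-450b vector libraries and 1.96, 1.87 and 2.48% in empty vector libraries. The libraries labelled miR-450a vector lay below all 6 others. The change was -2.31 ± 0.27 (SE), adjusted p = 0.0112 against the empty vector and -1.90 ± 0.25 (SE), adjusted p = 0.0186 against the miR-450b vector. With offsets of 0.1 and 2 percentage points the change against the empty vector was -4.13 and -1.04, so its size rests on the offset. The call against the empty vector was lost with the arcsine square root (adjusted p = 0.0569), the replicate block (adjusted p = 0.174), without miR-450a vector 3 (-2.26) or without empty vector 3 (-2.20). That against the miR-450b vector was lost without any 1 of the 6 libraries (-2.01 to -1.70). It was also lost with an offset of 2 percentage points (adjusted p = 0.102) and the arcsine square root (adjusted p = 0.0715). The same held with no filter (adjusted p = 0.0617) and with the replicate block (adjusted p = 0.121). The pair is a scarce one with the miR-450a vector, where unstarred miR-130a had 63.3, 204 and 82.5 RPM, against 8775, 16539 and 13429 RPM in miR-450b vector libraries and 47239, 24668 and 14885 RPM in empty vector libraries. Unstarred miR-130a was 1.38, 3.25 and 2.18% of the level of its close relative miR-130b-3p with the miR-450a vector, 425, 548 and 605% in miR-450b vector libraries and 1485, 698 and 691% in empty vector libraries. Whether reads of miR-130b entered the miR-130a row was not tested. The starred arm of miR-130a and the main arm of miR-130b are shown because the share rests on the first and the unstarred level is set against the second.
miR-130a-5p: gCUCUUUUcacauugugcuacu
miR-130b-3p: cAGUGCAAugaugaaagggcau

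The share of miR-106a* was 0.233, 0.213 and 0.0886% in miR-450a vector libraries, 0.790, 1.18 and 2.40% in miR-450b vector libraries and 2.75, 1.97 and 5.72% in empty vector libraries. The miR-450a vector libraries lay below all 6 others, and the highest miR-450b vector library lay above the lowest empty vector library. The change of the miR-450a vector from the empty vector was -2.49 ± 0.41 (SE), adjusted p = 0.0315. It was -3.64 with an offset of 0.1 percentage points. The call was lost with an offset of 2 percentage points (-1.32, adjusted p = 0.199), with the arcsine square root (adjusted p = 0.172), with minima of 20 and 500 RPM (adjusted p = 0.0521 and 0.0624) and with no filter (adjusted p = 0.0577). It was also lost without miR-450a vector 1, 2 or 3 and without empty vector 1 or 3 (-2.59 to -2.10). The same held with the replicate block (adjusted p = 0.201). Between the vectors the change was -1.47 ± 0.35 (SE), adjusted p = 0.121. The level of the starred arm was 2.26, 4.46 and 1.18 RPM in miR-450a vector libraries, 6.26, 14.7 and 23.0 RPM in miR-450b vector libraries and 93.7, 42.5 and 104 RPM in empty vector libraries. Unstarred miR-106a and miR-17 differ at a single base (C1A, miR-17-5p given first, counted from the 5′ end).
miR-106a-5p: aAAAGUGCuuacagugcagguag
miR-17-5p: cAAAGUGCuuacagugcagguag
Unstarred miR-106a was 2.22, 2.38 and 2.43% of miR-17 with the miR-450a vector, 3.12, 3.31 and 3.45% in miR-450b vector libraries and 6.29, 5.85 and 5.56% in empty vector libraries. The percentages differ little within a group. The starred arm miR-106a* was 0.0612, 0.0764 and 0.0332% of miR-17* with the miR-450a vector, 0.403, 0.828 and 1.10% in miR-450b vector libraries and 3.82, 1.47 and 5.99% in empty vector libraries. The level of unstarred miR-106a is therefore uncertain, and whether reads of miR-17 entered it was not tested.

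The share of miR-450b* was 0.346, 0.891 and 0.800% in miR-450a vector libraries, 4.37, 5.02 and 3.72% in miR-450b vector libraries and 1.33, 0.113 and 0.673% in empty vector libraries. It was higher in all 3 libraries of the vector that carries this hairpin than in the other 6. Between the miR-450a and miR-450b vectors the change was -2.13 ± 0.28 (SE), adjusted p = 0.0186, and -1.30 with an offset of 2 percentage points. Since miR-450b* met the 10 RPM mean only through the miR-450b vector libraries, this test adds nothing to the shares given. The call was lost with the arcsine square root, with no filter, with the replicate block and without any 1 of the 6 libraries (-2.26 to -1.90). Unstarred miR-450b was 2.31, 2.21 and 1.41% of unstarred miR-450a in miR-450a vector libraries, 203, 169 and 347% in miR-450b vector libraries and 22.5, 17.9 and 29.4% in empty vector libraries. Whether reads of the similar miR-450a entered the miR-450b row was not tested, so the unstarred level in miR-450a vector libraries is uncertain. Against the empty vector the pair was not tested, because it averaged under 100 RPM there. For miR-450a, with the starred arms of both copies summed, the share was 9.43, 10.8 and 3.67% in miR-450a vector libraries, 10.7, 6.09 and 7.74% in miR-450b vector libraries and 6.20, 5.84 and 5.87% in empty vector libraries. The groups overlapped, and the change did not pass the test.

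**Figure D4:**
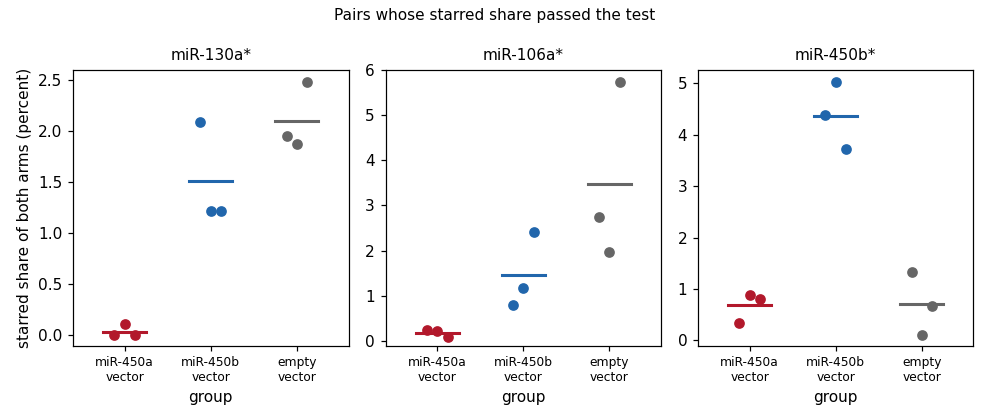
Starred share of both arms (percent, vertical axis) in each library of the 3 pairs that passed the test in at least 1 comparison, by group. Points are libraries and bars group means (n = 3); miR-130a* and miR-106a* lie under 0.3% in every miR-450a vector library, and miR-450b* at 3.72% or above in every miR-450b vector library.

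Starred arms of gene copies can be told apart where the unstarred arms cannot, because the copies of a hairpin give the same main arm and lesser arms of different sequence. Of the members, 6 pairs of copies had both starred arms, and the plot of gene copies gives each library. They are shown for miR-181a and miR-29b, with the starred arm of copy 1, that of copy 2 and the shared main arm.
miR-181a-3p: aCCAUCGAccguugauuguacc
miR-181a-2-3p: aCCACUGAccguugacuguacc
miR-181a-5p: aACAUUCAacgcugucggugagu
miR-29b-1-5p: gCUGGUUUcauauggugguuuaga
miR-29b-2-5p: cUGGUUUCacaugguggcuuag
miR-29b-3p: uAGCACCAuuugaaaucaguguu
The older name miR-181a-1* corresponds to miR-181a-3p. The copies lie on different chromosomes, MIR181A1 at chr1:198859044-198859153 (minus strand) and MIR181A2 at chr9:124692442-124692551 (plus strand), MIR29B1 at chr7:130877459-130877539 (minus strand) and MIR29B2 at chr1:207802443-207802523 (minus strand), all in GRCh38.p14.

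The starred arm of copy 1 made up 86.2, 92.2 and 88.0% of both miR-181a starred arms with the miR-450a vector, 2.61, 5.93 and 4.95% in miR-450b vector libraries and 5.16, 6.14 and 5.62% in empty vector libraries. The groups of the miR-450a vector and the empty vector were far apart. The level of miR-181a-1* differed as given above, whereas miR-181a-2* had 69.6, 29.0 and 79.2 RPM with the miR-450a vector, against 40.2, 85.4 and 85.1 RPM with the empty vector (-0.24 ± 0.44 (SE), adjusted p = 0.662) and did not pass the test. Unstarred miR-181a, to which both copies contribute, was higher by 3.35 ± 0.34 (SE). With the copies summed, the starred share of miR-181a was 8.15, 8.32 and 11.3% in miR-450a vector libraries, 17.3, 11.4 and 13.9% in miR-450b vector libraries and 11.0, 12.2 and 15.9% in empty vector libraries.

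For miR-29b the copies went opposite ways. Copy 1 made up 14.0, 18.6 and 5.23% of the starred arms with the miR-450a vector, 94.3, 95.6 and 89.7% in miR-450b vector libraries and 94.8, 93.6 and 95.0% in empty vector libraries. In miR-450a vector libraries miR-29b-1* was lower, as given above, and miR-29b-2* was higher, at 52.8, 59.1 and 46.4 RPM with the miR-450a vector, against 8.60, 11.5 and 6.53 RPM with the empty vector (1.74 ± 0.18 (SE), adjusted p = 8.22e-06). Since miR-29b-2* reached a mean of 10 RPM in miR-450a vector libraries only, its test adds nothing to these values. Each copy moved with its neighbour on the same chromosome. On chromosome 7 miR-29a* was lower, and on chromosome 1 miR-29c* was higher, at 72.0, 131 and 53.9 RPM with the miR-450a vector, against 38.2, 6.25 and 23.1 RPM with the empty vector (1.61 ± 0.39 (SE), adjusted p = 0.00473). Unstarred miR-29b, from both copies, stood at 195, 531 and 172 RPM with the miR-450a vector, against 5583, 431 and 1446 RPM with the empty vector, and the groups overlapped. Its change was -2.49 ± 0.77 (SE), and it no longer passed with no filter, without empty vector 1 (-1.56), without miR-450a vector 1 (-2.29) or without miR-450a vector 3 (-2.20).

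For miR-30c, copy 2 (chr6:71376960-71377031, minus strand) lies on chromosome 6 with miR-30a (chr6:71403551-71403621, minus strand), and copy 1 (chr1:40757284-40757372, plus strand) on chromosome 1 with miR-30e (chr1:40754355-40754446, plus strand). The level of miR-30c-2* was 90.6, 49.5 and 67.7 RPM in miR-450a vector libraries, 0, 0 and 0 RPM in miR-450b vector libraries and 1.08, 1.23 and 1.07 RPM in empty vector libraries, so it was listed at 0 throughout the miR-450b vector group. That of miR-30c-1* was 55.0, 55.4 and 21.2 RPM in miR-450a vector libraries, 42.9, 47.1 and 44.9 RPM in miR-450b vector libraries and 64.3, 55.2 and 62.8 RPM in empty vector libraries, with a change of -0.47 ± 0.29 (SE) with the miR-450a vector that did not pass the test. Both starred arms from chromosome 6, miR-30a* and miR-30c-2*, were higher with the miR-450a vector, and neither starred arm from chromosome 1 passed the test. Since miR-30c-2* met the 10 RPM mean only through miR-450a vector libraries, its test adds nothing to these values.

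For miR-450a, copy 1 made up 94.4, 97.0 and 94.4% of the starred arms with the miR-450a vector, 37.7, 39.4 and 41.4% in miR-450b vector libraries and 60.3, 37.6 and 52.7% in empty vector libraries. The level of miR-450a-2* was 52.0, 37.0 and 43.9 RPM with the miR-450a vector, against 8.32, 15.7 and 13.2 RPM with the empty vector (1.28 ± 0.20 (SE), adjusted p = 1.80e-04), a far smaller difference than that of miR-450a-1*. Copy 1 of miR-16 made up 6.44, 11.0 and 17.7% in miR-450a vector libraries, 3.82, 5.79 and 7.72% in miR-450b vector libraries and 6.71, 2.82 and 5.38% in empty vector libraries, and the groups overlapped. Copy 1 of miR-196a made up 31.0, 19.5 and 19.5% in miR-450a vector libraries, 43.1, 33.4 and 17.7% in miR-450b vector libraries and 15.7, 21.0 and 13.8% in empty vector libraries, and these overlapped too. The difference of the log2 ratio of the copies, on RPM + 10, between the miR-450a vector and the empty vector was 5.23 for miR-181a, 4.11 for miR-450a, -3.27 for miR-30c and -4.90 for miR-29b. Each had a two-sided exact permutation p of 0.1, the smallest that 3 against 3 allows, over 18 such comparisons of copies (adjusted p = 0.18). No values could have passed this test, so it decides nothing about the copies. The ratios of miR-181a, miR-30c and miR-29b also rest on miR-181a-1*, miR-30c-2* and miR-29b-2*. These starred arms met the 10 RPM mean only through miR-450a vector libraries, so a test of their ratios adds nothing to the values. The comparisons of copies were chosen after the values were seen.

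**Figure D5:**
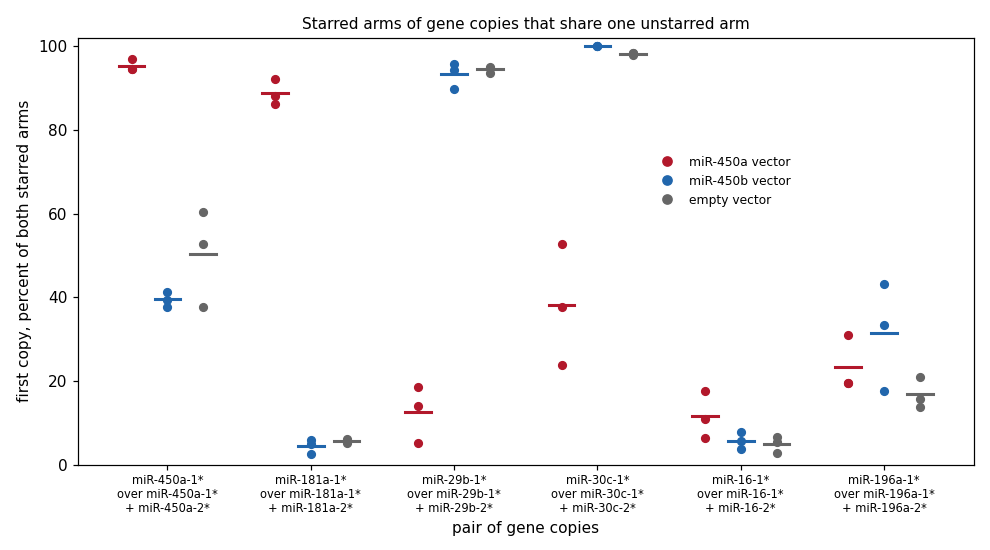
Starred arm of gene copy 1 as a percentage of the starred arms of both copies (vertical axis) for 6 miRNAs with 2 copies. Points are libraries and bars group means (n = 3); for miR-181a the miR-450a vector libraries lie at 86.2 to 92.2% and all others at or below 6.14%, and for miR-29b the order is turned round.

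Libraries also deviated from their group in arm balance. Over the 95 member pairs averaging at least 100 RPM in all 3 groups, the deviation of the log2 odds from the group mean had an SD of 0.77 in empty vector 1, and of 0.29 to 0.55 in the other 8 libraries. In empty vector 1, miR-19a* stood at 245.5 RPM, against 35.7 and 19.6 RPM in the other empty vector libraries, and miR-222* at 170.7 RPM, against 17.2 and 34.1 RPM. The deviations of miR-450a vector 2 and empty vector 1 went together (Pearson r = 0.61 over 95 pairs), as did those of miR-450a vector 1 and miR-450b vector 1 (r = 0.50) and those of miR-450b vector 1 and empty vector 2 (r = 0.49). These correlations are descriptions, since pairs of a cluster are not independent. Without both miR-450a vector 2 and empty vector 1, an alternative chosen after seeing the data, 70 starred levels passed in miR-450a and 18 in miR-450b vector libraries, each relative to the empty vector. With these libraries left out, 2 shares passed with the miR-450a vector (1 of them miR-130a), 0 with the miR-450b vector and 0 between the vectors.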

How the data were processed

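The deposited tables hold fractions that the authors made from small RNA reads, 1 row per mature or precursor miRNA and 1 column per library, and every mature column totals 1. TopHat and Cuffdiff stand in the submitters' processing notes with no role, and how miRNA reads were assigned is not stated. Fractions were multiplied by 1000000 (RPM). Levels were fitted with limma 3.58.1 (R 4.3.3) on log2(RPM + 10) over all 9 libraries, using rows that averaged 10 RPM or more, with an intensity trend. Starred shares were fitted as log2 odds with an offset of 0.5 percentage points over the libraries compared, with starred and 5p/3p pairs averaging at least 100 RPM in each group. Benjamini-Hochberg adjustment ran over all rows or pairs. Depth is unknown, so a count-based test was not run. Members named were the 10 most abundant, the 5 largest level changes and 8 largest share changes per direction among calls without overlap, shares above 50% in a group mean, the arms of miR-450a and miR-450b, those beside the threshold and the 2 most abundant per family list. Other members named were picked after their values were seen, as called members of a list. The members and lists were chosen with earlier results of these data known. Alternatives changed the pseudocount, offset, filters, scaling, trend, libraries and replicate block. The mRNA and PAR-CLIP samples were not used here.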

Additional observations from a re-analysis of the deposited data

Results flagged for a closer look

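A viral hairpin outside the human starred rows gave a signal above that of the empty vector libraries. SV40 miR-S1-3p averaged 63.8 ± 14.0 RPM with the miR-450a vector, 0.167 ± 0.289 RPM with the miR-450b vector and 0.0889 ± 0.154 RPM with the empty vector (SD, n = 3 each). The other arm of this hairpin, SV40 miR-S1-5p, averaged 0.833 ± 0.185 RPM with the miR-450a vector, 0.0953 ± 0.165 RPM with the miR-450b vector and 0.0110 ± 0.0191 RPM with the empty vector (SD, n = 3 each). Groups of 3 were not searched for single outlying libraries.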

How the results depend on the processing

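Counts of changed starred levels stayed within 1.5 times of the reported ones under all alternatives run, leaving out each library in turn included (58 to 68 with the miR-450a vector and 13 to 18 with the miR-450b vector, each relative to the empty vector, and 62 to 68 between the vectors), except that 10 rather than 17 passed with no filter for the miR-450b vector. These counts pool both directions, whose balance turned round with median-of-ratios scaling. Between the vectors 45 higher and 27 lower became 21 and 41, with 48 of 72 calls shared. Between the miR-450a and empty vectors 39 higher and 28 lower became 27 and 37, with 55 of 67 calls shared. Of the 156 level calls over the 3 comparisons, 103 were kept in every alternative, 53 were lost in at least 1 and none reversed. Share calls were fragile. Against 2 reported for the miR-450a vector and the empty vector, 1 passed with an offset of 2 percentage points, a minimum of 20 RPM or no filter, 0 with the arcsine square root or a minimum of 500 RPM, and 0 to 2 without single libraries. Between the vectors, against 2 reported, 1 passed with an offset of 2 percentage points or in the fit of all 9 libraries, 0 with the arcsine square root, a minimum of 500 RPM, no filter or both libraries that deviated together left out, and 0 without any single library. The minimum of 500 RPM left miR-130a untested in both comparisons and miR-450b untested between the vectors. The fit of all 9 libraries left miR-450b untested. In these cases the pair was not tested, rather than tested and not passed. Between miR-450b and empty vector libraries the count was 0 throughout. The cause was not tested. With the replicate block 68, 17 and 72 levels passed in the 3 comparisons, and 0, 0 and 0 shares. Same-numbered libraries did not deviate together throughout (correlations of -0.51 to 0.64). Deviations from a mean of 3 libraries depend on each other, so these correlations cannot decide whether same-numbered libraries share a batch, which was not tested. Unknown depth limits what low rows can show.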
